A study of Mus musculus with 9 samples.

Results

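Leptin and growth hormone signal through cytokine receptors that carry the kinase JAK2, and the transcripts of 9 genes of this route were followed in perigonadal white fat, which lies next to the gonads. The genes were chosen by symbol: the leptin receptor Lepr, the kinase Jak2, the transcription factors Stat3, Stat5a and Stat5b, and the feedback inhibitors Socs1, Socs2, Socs3 and Cish. All 9 were measured, by 10 probe sets of 23332, and each gene is represented by its brightest probe set over the 9 arrays, as were all 14860 genes with 1 symbol. Socs3 has 1 other probe set, described with it.

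Leptin is secreted by fat in proportion to fat mass, and its long receptor form activates JAK2 and STAT3. The growth hormone receptor also works through JAK2, mainly with STAT5A and STAT5B, and restrains fat storage in adipocytes. The STAT proteins induce SOCS genes, whose products bind receptors or JAKs and end the signal. Cish and Socs2 are known as STAT5 targets, and Socs3 as a STAT3 target.

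Tissue came from mice aged 4 months, with 3 arrays for each genotype: LCS/LCS, G609G/G609G and wild type (wt). The G609G mutation of Lmna, which encodes lamins A and C, is known to yield the truncated lamin A progerin. The labels do not spell out LCS, which is known as an Lmna allele that makes lamin C only. The labels name no treatment, no Cre driver and no sex. The comparisons set each mutant against wt and the mutants against each other. The design text speaks of biological replicates, but no label ties an array to an animal, so each p-value rests on array-to-array spread, part of which may be technical.

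The deposited values are log2 signals per gene, in which a difference of 1 is a factor of 2. Array medians were 6.36 to 6.45 in wt, 5.94 to 6.01 in G609G/G609G and 6.31 to 6.37 in LCS/LCS, and centring on them adds 0.425 to every G609G/G609G against wt change. Each change is therefore given as deposited and set beside 2 rescaled versions of the arrays, by quantiles and by medians. Skeletal muscle markers, 10 measured of 12, averaged 5.75 to 5.83 in wt, 11.57 to 11.68 in G609G/G609G and 6.03 to 6.17 in LCS/LCS. The mean of 7 epididymal markers of 8 listed was 12.41 to 12.47, 6.62 to 6.88 and 12.64 to 12.66 in the same order. All 7 were lower in G609G/G609G than in wt, but unequally. Lcn5 (11.63) and Adam7 (11.10) stayed bright there, while the means of Lcn8, Lcn9, Gpx5, Cst11 and Rnase10 were 4.08 to 5.65. The mean of 8 testis and germ cell markers was 8.47 to 8.69, 6.81 to 6.90 and 5.48 to 5.64 in wt, G609G/G609G and LCS/LCS. White adipocyte markers, 6 measured of 8, averaged 12.68 to 12.70, 11.98 to 12.02 and 12.80 to 12.83, so the label's fat markers were present on every array, beside transcripts of other tissues. For 5 endothelial markers the mean was 9.16 to 9.31, 9.10 to 9.26 and 9.52 to 9.59, and for 4 hepatocyte markers of 5 listed 6.65 to 6.70, 5.13 to 5.31 and 5.38 to 5.52. In such bulk samples fewer cells of a type and less RNA per cell cannot be told apart, and the part of muscle, epididymis or testis RNA in the values below was not tested.

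Promoter windows from RefSeq (build GRCm38.p6, 250 bases before to 50 after an annotated start) were found for 8 of the 9 members. Socs2 had no window and was not searched. The palindrome TTCNNNGAA, the core element that STAT dimers bind, was sought in all 32851 windows and reads the same on both strands. It was in 8.3% of them, and 0.457% held 2 or more. Of all genes with a window, 9.55% held it in any window. Among the 11 member windows it was in that of Cish, with 2 matches, and that of Socs3, with 1. These 2 windows are shown because they are the only member windows with a match. A further reason is that their feedback genes had changes of opposite sign in G609G/G609G fat as deposited. The Socs3 fall was not called on quantile normalized or median centred arrays, and a link between match and change was not tested. The Cish matches, TTCCTGGAA and TTCTTGGAA, start at positions 1 and 12 counted from the annotated start, and the Socs3 match, TTCTTAGAA, at position -154. A match is a stretch of letters, not a shown binding site. In the sequences, read 5′ to 3′ along the gene, the matches are in capitals.
Cish, chr9:107296409-107296708, plus strand: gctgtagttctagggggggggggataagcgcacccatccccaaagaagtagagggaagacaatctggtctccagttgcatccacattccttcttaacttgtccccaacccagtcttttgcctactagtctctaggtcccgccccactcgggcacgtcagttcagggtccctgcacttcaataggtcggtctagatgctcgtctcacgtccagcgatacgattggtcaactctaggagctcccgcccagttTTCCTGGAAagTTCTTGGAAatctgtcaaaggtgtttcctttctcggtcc
Socs3, chr11:117969317-117969616, minus strand: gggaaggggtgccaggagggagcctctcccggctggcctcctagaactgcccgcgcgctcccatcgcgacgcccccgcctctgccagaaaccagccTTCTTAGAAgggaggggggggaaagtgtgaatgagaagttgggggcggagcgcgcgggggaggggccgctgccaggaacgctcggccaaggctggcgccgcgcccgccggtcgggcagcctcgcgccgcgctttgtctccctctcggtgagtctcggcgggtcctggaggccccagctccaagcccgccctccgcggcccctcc

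The leptin receptor transcript was highest in the genotype in which the leptin transcript was lowest, and lowest where leptin was highest. Lepr (probe set 6915847) read 5.40, 5.47 and 5.48 in wt, 7.51, 7.61 and 7.92 in G609G/G609G and 5.06, 5.08 and 5.05 in LCS/LCS. The G609G/G609G arrays were all far above the others, no genotypes overlapped, and the order was G609G/G609G, wt, LCS/LCS. The wt mean of Lepr stood at percentile 39.2 of all probe sets. On every wt and LCS/LCS array Lepr read below the array median, so the step between these genotypes is one between dim signals. Lepr rose 4.69-fold in G609G/G609G against wt, from 5.45 ± 0.04 to 7.68 ± 0.21 (means ± SD, n = 3; log2 change 2.23, SE 0.10, limma adjusted p = 6.29e-07). The rise was 2.69 with quantile normalized and 2.65 with median centred arrays. In LCS/LCS it fell by 0.39 (SE 0.10, limma adjusted p = 0.031), a fold of 1.31, and the fall was called under all 3 scalings. Leaving out any 1 of the 6 wt or LCS/LCS arrays ended that call (limma adjusted p = 0.0681 to 0.0957). The gene-level value does not separate the long receptor form from the short ones. Leprot, the coding gene just before Lepr in RefSeq, was looked up after these values were seen. It was 9.45 ± 0.26 in G609G/G609G against 9.23 ± 0.09 in wt (log2 change 0.22, 95% interval -0.07 to 0.51, limma adjusted p = 0.176). On quantile normalized arrays the Leprot change was 0.62 (adjusted p = 0.00113) and on median centred arrays 0.64 (adjusted p = 0.000992), both called.

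Lep, which encodes leptin, read 11.25, 11.25 and 11.24 in wt, 5.16, 5.34 and 5.45 in G609G/G609G and 12.39, 12.40 and 12.31 in LCS/LCS. Its fall in G609G/G609G against wt was 61.0-fold (log2 change -5.93, SE 0.08, limma adjusted p = 9.9e-10) and its rise in LCS/LCS 2.17-fold (1.12, SE 0.08, limma adjusted p = 3.7e-05). Ligand and receptor ran in opposite order over the 3 genotypes. Within each array, the log2 ratio of Lepr to Lep was 8.16 higher in G609G/G609G than in wt and 1.51 lower in LCS/LCS than in wt. A ratio within an array does not depend on a shift of the whole array. Its groups did not overlap in either comparison, and each exact two-sided permutation p was 0.1, the smallest that 3 against 3 arrays allow. Over the 15 tests made of 5 such ratios this p is 0.107 after Benjamini-Hochberg adjustment.

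**Figure D1:**
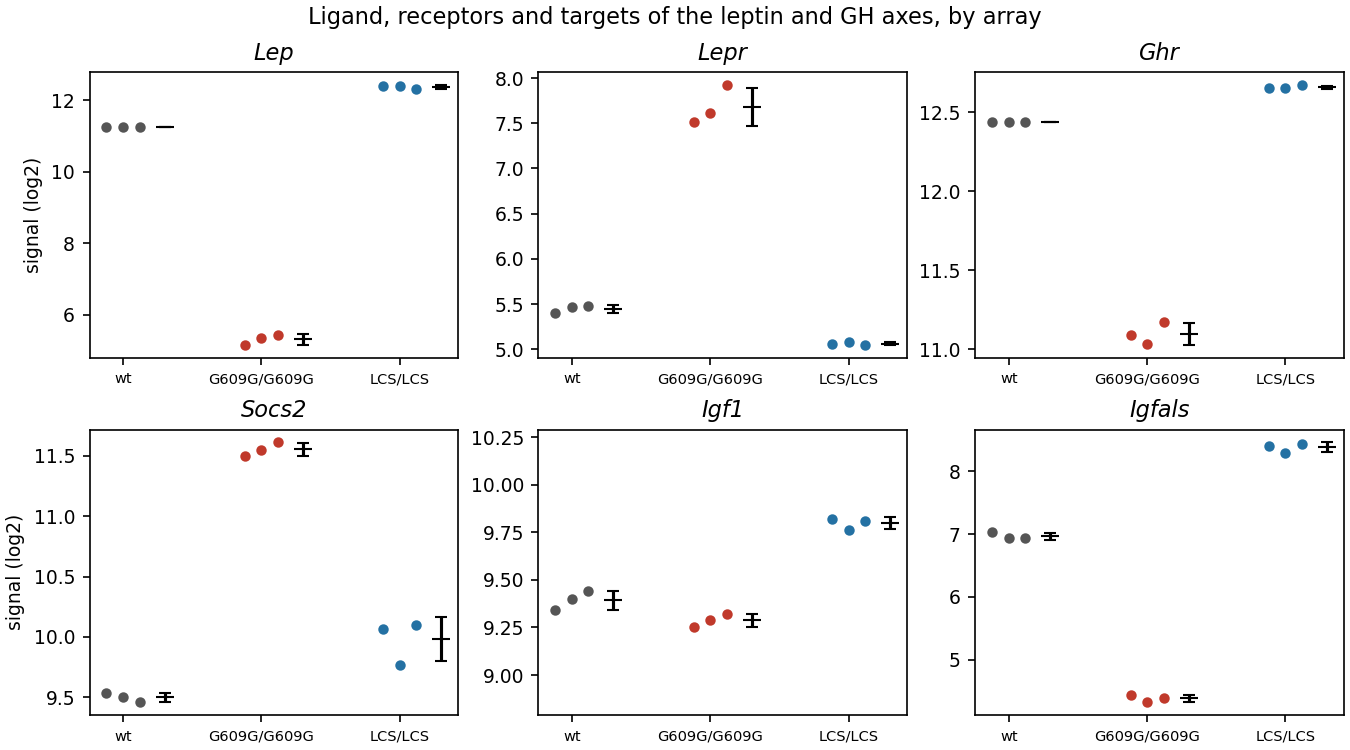
Signal (log2, vertical axes with their own ranges) of 6 genes on each array, grouped by genotype. Points are arrays and the bar beside them is the mean with SD (n = 3); Lep and Igfals are lowest and Lepr and Socs2 highest in G609G/G609G, while Igfals, Lep and Igf1 are highest in LCS/LCS.

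Jak2 (probe set 6869027), the kinase that both receptors use, was moderately lower in G609G/G609G. It read 8.97, 9.05 and 9.08 in wt, 8.32, 8.26 and 8.53 in G609G/G609G and 8.88, 8.86 and 8.88 in LCS/LCS. The G609G/G609G arrays lay below all others. Its fall against wt was 1.58-fold as deposited (log2 change -0.66, SE 0.08, limma adjusted p = 0.000121) and it fell by 0.23 on quantile normalized and by 0.24 on median centred arrays, with a call each time. In LCS/LCS the change of -0.16 (95% interval -0.33 to 0.01, limma adjusted p = 0.218) did not pass as deposited, and it passed after quantile normalization (-0.20, adjusted p = 0.0201). Between the mutants, the change of -0.50 was called as deposited (adjusted p = 0.000594) but not after quantile normalization (-0.02) or median centring (-0.13).

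The 3 STAT genes, which follow one another on the genome in the order Stat5b, Stat5a, Stat3 with no other coding gene between them in RefSeq, changed unequally. Stat5a (probe set 6784218) read 8.44, 8.60 and 8.62 in wt, 7.37, 7.21 and 7.47 in G609G/G609G and 8.43, 8.30 and 8.39 in LCS/LCS. The G609G/G609G arrays stood well below the rest, and the LCS/LCS arrays lay just below the wt arrays, with no overlap between genotypes. Stat5a fell 2.30-fold in G609G/G609G against wt (log2 change -1.20, SE 0.08, limma adjusted p = 7.32e-06), a fall called under all 3 scalings, at -0.71 and -0.78 under the others. Against LCS/LCS it fell by 1.02 (adjusted p = 1.58e-05), and by 0.48 and 0.65 with a call under the other scalings. Stat5a in LCS/LCS differed from wt by -0.18 (95% interval -0.37 to 0.01, adjusted p = 0.211), and this passed only after quantile normalization (-0.23, adjusted p = 0.0442).

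Stat5b (probe set 6791444), the close paralogue of Stat5a, read 7.92, 7.87 and 8.15 in wt, 7.56, 7.89 and 8.07 in G609G/G609G and 8.09, 7.96 and 8.08 in LCS/LCS. The 3 genotypes overlapped, and the G609G/G609G arrays were the most scattered. The change in G609G/G609G against wt was -0.14 as deposited (95% interval -0.45 to 0.17, limma adjusted p = 0.411). It was 0.38 with a call on quantile normalized arrays (adjusted p = 0.0077) and 0.28 on median centred arrays (adjusted p = 0.0534), so it had no settled direction. In LCS/LCS against wt it changed by 0.06 (95% interval -0.24 to 0.37, adjusted p = 0.832). The paralogues changed unequally under both scalings tried for their ratio: within arrays the log2 ratio of Stat5a to Stat5b changed by -1.06 in G609G/G609G against wt, and by -1.09 after quantile normalization. In LCS/LCS against wt it changed by -0.24. Both exact two-sided permutation p-values were 0.1, the smallest possible (0.107 over the 15 ratio tests).

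Stat3 (probe set 6791451) differed by small amounts between genotypes. It read 9.72, 9.69 and 9.82 in wt, 9.85, 9.83 and 9.87 in G609G/G609G and 10.03, 9.96 and 10.03 in LCS/LCS, with no overlap between the genotypes. In LCS/LCS it rose 1.20-fold (log2 change 0.26, SE 0.05, limma adjusted p = 0.0116) under all 3 scalings, but the call was lost without wt replicate 1 or 2 or LCS/LCS replicate 1 or 3 (adjusted p = 0.0502 to 0.0549). In G609G/G609G the change of 0.11 (95% interval -0.02 to 0.23, adjusted p = 0.133) did not pass as deposited, and it passed at 0.50 and 0.53 under the other scalings. Between the mutants the direction turned with scaling: the change of G609G/G609G against LCS/LCS was -0.16 as deposited, 0.31 on quantile normalized and 0.22 on median centred arrays, each with a call. The deposited call was lost without any 1 of 5 arrays (wt replicate 1, G609G/G609G replicates 1 and 2, LCS/LCS replicates 1 and 3; limma adjusted p = 0.06 to 0.117).

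Socs2 was the feedback gene with the greatest range over the genotypes. Socs2 (probe set 6776185), an inhibitor of growth hormone signalling whose loss in mice gives gigantism, read 9.54, 9.50 and 9.46 in wt, 11.50, 11.55 and 11.61 in G609G/G609G and 10.07, 9.77 and 10.10 in LCS/LCS. The genotypes did not overlap, and both mutants were above wt. It rose 4.15-fold in G609G/G609G (log2 change 2.05, SE 0.09, limma adjusted p = 5.93e-07) and 1.39-fold in LCS/LCS (0.48, SE 0.09, limma adjusted p = 0.0077), in both under all 3 scalings. The call in LCS/LCS was lost by the methods' t-test after Benjamini-Hochberg adjustment over all probe sets (adjusted p = 0.0606). The difference between the mutants was 1.57 (SE 0.09, limma adjusted p = 2.05e-06).

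Cish (probe set 6992209), which blocks STAT5 docking, read 7.61, 7.60 and 7.73 in wt, 7.90, 7.87 and 8.00 in G609G/G609G and 7.80, 7.78 and 7.81 in LCS/LCS. The genotypes did not overlap, in the order wt, LCS/LCS, G609G/G609G. Its rise in G609G/G609G was 1.21-fold as deposited (log2 change 0.28, SE 0.06, limma adjusted p = 0.00428). The log2 change was 0.79 on quantile normalized and 0.70 on median centred arrays. In LCS/LCS the change of 0.15 (95% interval 0.01 to 0.29 before adjustment, adjusted p = 0.138) did not pass as deposited and passed under the other scalings (0.16 and 0.20). Between the mutants the change was 0.13 as deposited (95% interval -0.01 to 0.26, adjusted p = 0.108), and 0.63 and 0.50 with a call under the other scalings. Although both are known STAT5 targets, Cish and Socs2 rose unequally: the within-array log2 ratio of Cish to Socs2 changed by -1.78 in G609G/G609G against wt (exact two-sided permutation p = 0.1, the smallest possible, 0.107 over the 15 ratio tests).

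Socs3 (probe set 6792614), which binds the leptin receptor and is induced by leptin, read 6.11, 6.06 and 5.72 in wt, 5.34, 5.41 and 5.32 in G609G/G609G and 6.61, 6.42 and 6.53 in LCS/LCS. As deposited, it followed the order of Lep over the genotypes, with no overlap. On median centred arrays Socs3 overlapped between wt (-0.245, -0.31 and -0.73) and G609G/G609G (-0.60, -0.54 and -0.69). In LCS/LCS it rose 1.47-fold (log2 change 0.56, SE 0.11, limma adjusted p = 0.0082), under all 3 scalings, and the methods' t-test after adjustment lost the call (adjusted p = 0.0716). In G609G/G609G it fell by 0.61 as deposited (SE 0.11, adjusted p = 0.00144), but the call was lost after quantile normalization (-0.31, adjusted p = 0.0527) and median centring (-0.18, adjusted p = 0.226). The fall of G609G/G609G against LCS/LCS, 2.24-fold, held under all 3 scalings (log2 change -1.16, SE 0.11, adjusted p = 2.96e-05). The other probe set, 6785317, read 3.99 ± 0.03, 3.96 ± 0.23 and 4.16 ± 0.27 in wt, G609G/G609G and LCS/LCS. It passed limma's test in no comparison (adjusted p = 0.887 in G609G/G609G against wt, 0.562 in LCS/LCS against wt and 0.305 between the mutants). This probe set was dim, with its wt mean at percentile 17.9 of all probe sets, which limits what its lack of a call can show.

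Socs1 (probe set 6843913), an inhibitor of JAK kinases best known from interferon signalling, read 7.78, 7.72 and 7.68 in wt, 7.49, 7.51 and 7.03 in G609G/G609G and 7.70, 7.89 and 7.68 in LCS/LCS. Wt and LCS/LCS overlapped, and G609G/G609G replicate 3 was the lowest array. The fall in G609G/G609G (log2 change -0.38, SE 0.13, limma adjusted p = 0.0361) rested on the scaling, as the change was 0.15 on quantile normalized and 0.04 on median centred arrays. The call was lost without any 1 wt array or LCS/LCS replicate 1 or 3 (limma adjusted p = 0.0503 to 0.0955), and without G609G/G609G replicate 3 the deposited change was -0.23 (adjusted p = 0.0391). Between the mutants the change of -0.41 was called (adjusted p = 0.0269) but not under the other scalings (0.12 and -0.04), nor without LCS/LCS replicate 1 or 2 (adjusted p = 0.0508 to 0.0895). In LCS/LCS the change was 0.03 (95% interval -0.27 to 0.33, adjusted p = 0.925). The within-array ratio of Socs3 to Socs1 differed between LCS/LCS and wt by 0.53 (exact two-sided permutation p = 0.1, the smallest possible) and between G609G/G609G and wt by -0.22 (p = 0.2 by the same exact test).

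**Figure D2:**
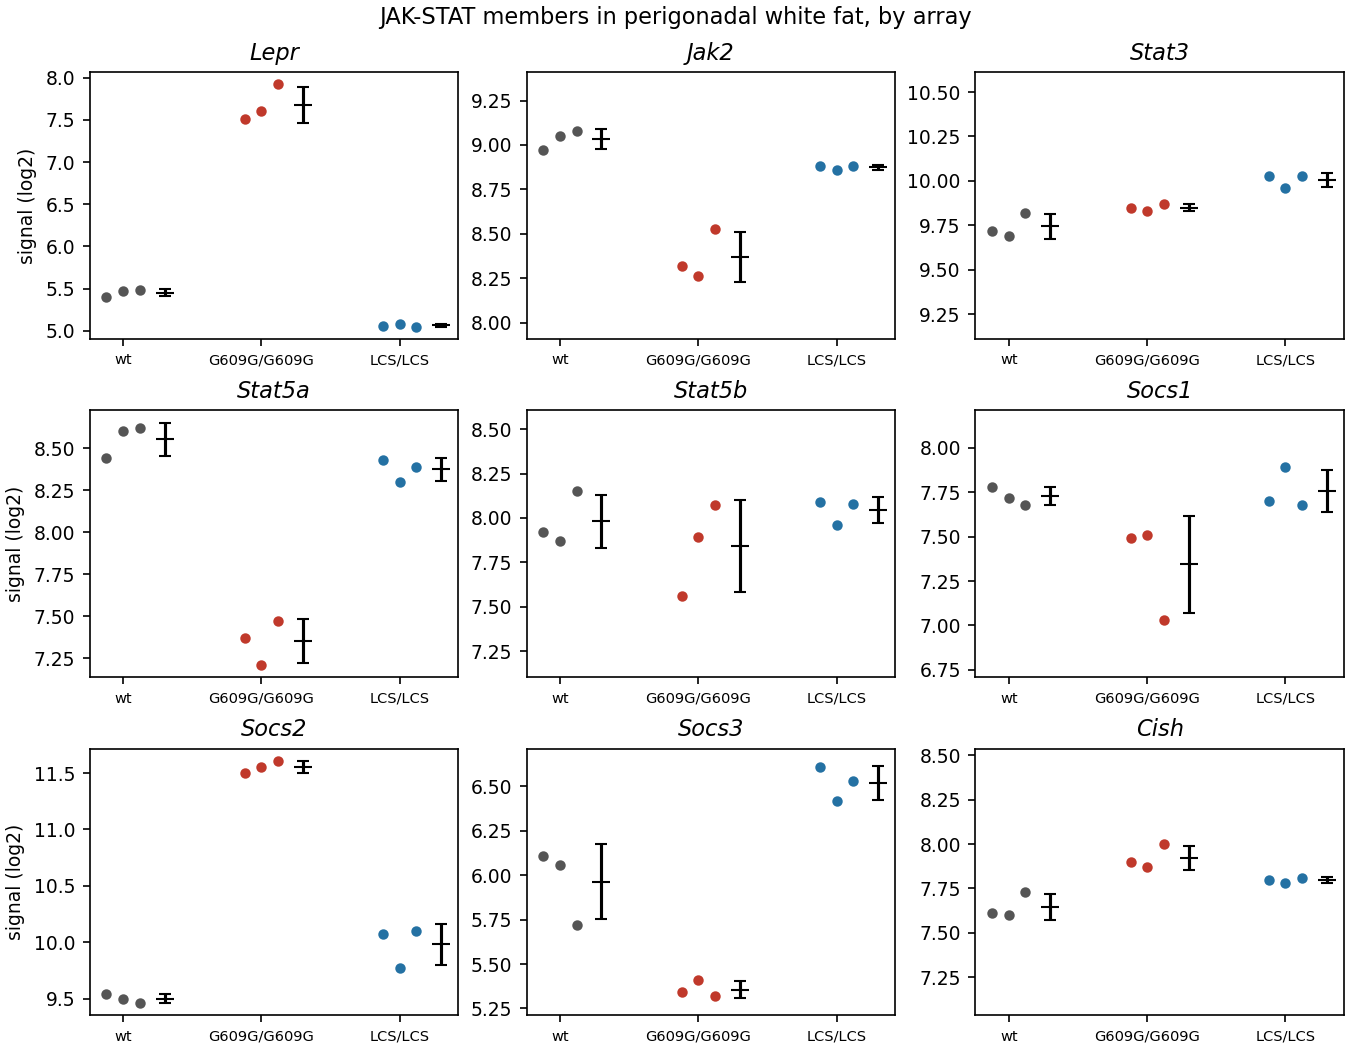
Signal (log2, vertical axes with their own ranges of at least 1.5 units) of the 9 members on each array. Points are arrays in the order of replicate number and the bar beside them is the mean with SD (n = 3); Lepr, Socs2 and Stat5a show the greatest separation of G609G/G609G from wt.

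Over the list, 3 of 9 members rose in G609G/G609G against wt (Lepr, Socs2 and Cish), where 10.5% of all 14860 genes rose. All 3 rises held under all 3 scalings, as did 10.2% of genes. Falls were called for 4 members, Jak2, Stat5a, Socs1 and Socs3, against 53.5% of all genes, and for Jak2 and Stat5a they held under all 3 scalings, against 25.5% of genes. The share of members that fell is near or below this background. Called members split into 3 higher and 4 lower as deposited, 5 and 2 on quantile normalized arrays and 4 and 2 on median centred ones. Of all genes, 28.5% were higher and 29.5% lower on quantile normalized arrays. On median centred arrays these shares were 43.9% and 27.6%, so the share of members called higher was near that of all genes there. The median change of the members was -0.14, beside -0.28 for all genes.

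In LCS/LCS against wt, 3 members rose (Stat3, Socs2 and Socs3) where 12.8% of all genes did, and Lepr fell where 9.77% of genes did. All 4 calls held under all 3 scalings, which 12% of genes did upwards and 8.71% downwards. After quantile normalization 7 members were called, 4 higher and 3 lower, beside 15.4% and 12.2% of all genes. The members' median was 0.06, beside 0.03 for all genes, and no member reached a fold of 1.5 as deposited. The methods' t-test, with unadjusted p of 0.05 or less and a fold of at least 1.5, took 0 members here, against 5 in G609G/G609G against wt (Lepr, Jak2, Stat5a, Socs2 and Socs3) and 4 between the mutants (the same genes without Jak2). That rule took 7.51% of all genes in LCS/LCS against wt, 34.5% in G609G/G609G against wt and 35.4% between the mutants.

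Between the mutants, Lepr (2.62) and Socs2 (1.57) were higher in G609G/G609G than in LCS/LCS, where 11.3% of all genes were higher. Jak2, Stat3, Stat5a, Socs1 and Socs3 were lower, where 51.1% of genes were. Under all 3 scalings both rises and the falls of Stat5a and Socs3 were left, beside 10.9% of genes higher and 26.2% lower. This comparison shares its arrays with the other comparisons and adds no independent samples.

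**Figure D3:**
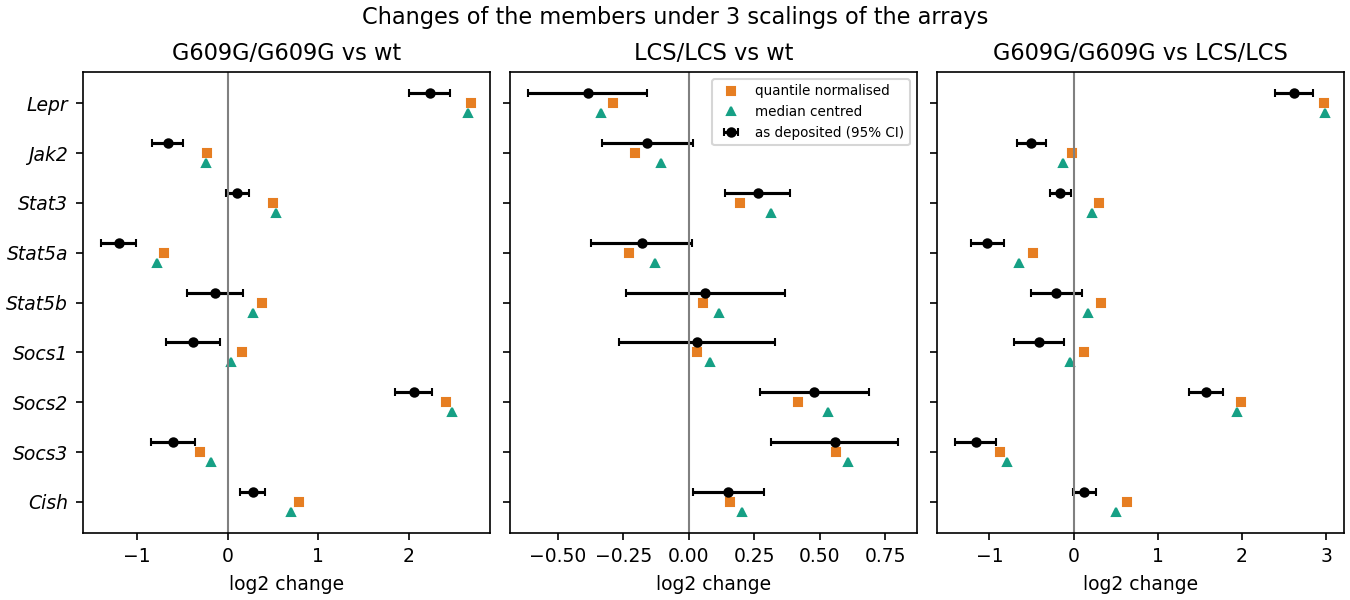
Log2 change (horizontal axes with their own ranges) of the 9 members in the 3 comparisons as deposited, with 95% confidence intervals from limma, and with the arrays rescaled by quantiles or medians. The estimates of Lepr, Jak2, Stat5a, Socs2, Socs3 and Cish keep their side of 0 in both comparisons of G609G/G609G. Those of Stat3, Stat5b and Socs1 cross it in at least 1 of them.

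Around the members, 64 genes of the route from a list of 75 were measured, and the list was drawn up with earlier results of these data known. Of these, 10 rose and 36 fell in G609G/G609G against wt, 10 and 18 of them under all 3 scalings (22 and 19 on quantile normalized arrays, 28 and 19 on median centred ones). Of all genes in this comparison, 10.5% were higher and 53.5% lower as deposited, and 10.2% and 25.5% under all 3 scalings. On quantile normalized arrays these shares were 28.5% and 29.5%, and on median centred ones 43.9% and 27.6%. Each share is the background of the counts made in the same way. This also holds for the G609G/G609G against wt counts in the lists that follow. As deposited, the share of these route genes that fell is near that of all genes. Their median change was -0.30, beside -0.28 for all genes. In LCS/LCS against wt 19 rose and 4 fell, 18 and 4 under all 3 scalings, with a median of 0.12 beside 0.03 for all genes. Of all genes, 12.8% rose and 9.77% fell in that comparison, 12% and 8.71% under all 3 scalings. Between the mutants 11 were higher and 38 lower in G609G/G609G, 11 and 22 under all 3 scalings (18 and 23 on quantile normalized arrays, 21 and 26 on median centred ones). Over all genes the shares between the mutants were 11.3% higher and 51.1% lower as deposited, and 27.8% and 29.5% on quantile normalized arrays. On median centred arrays they were 41.5% and 30.6%, and under all 3 scalings 10.9% and 26.2%.

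Among 12 ligands measured, Lep was the single one called in LCS/LCS against wt (1.12, limma adjusted p = 3.7e-05), and in G609G/G609G 3 fell as deposited, of which only Lep (-5.93) fell under all 3 scalings. Among 16 other cytokine receptors, 3 rose and 12 fell in G609G/G609G (3 and 7 under all 3 scalings). Ghr, the growth hormone receptor, read 12.44 on each wt array, 11.09, 11.03 and 11.17 in G609G/G609G and 12.65, 12.65 and 12.67 in LCS/LCS. It fell 2.54-fold in G609G/G609G (log2 change -1.34, SE 0.05, limma adjusted p = 2.83e-07) under all 3 scalings. Its rise of 0.22 in LCS/LCS (adjusted p = 0.0223) was not called under all of them. The within-array ratio of Lepr to Ghr was higher by 3.57 in G609G/G609G than in wt and lower by 0.60 in LCS/LCS than in wt (exact two-sided permutation p = 0.1 each, the smallest possible). After quantile normalization these changes were 3.72 and -0.41. The receptors of both hormones thus had changes of opposite sign in each mutant, with the Ghr call in LCS/LCS lost after quantile normalization (0.12) and without any 1 of the 6 wt or LCS/LCS arrays (adjusted p = 0.0543 to 0.0874).

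Other receptors of the family were also unequal. Cntfr, the receptor subunit for ciliary neurotrophic factor, rose by 1.24 in G609G/G609G on the arrays with the high muscle markers, whose part in it was not tested, while Ifngr2, an interferon gamma receptor chain, fell by 1.73 and Il10rb, a chain of the interleukin 10 receptor, was lower by 1.84 than in LCS/LCS. Each of these held under all 3 scalings. Il6st, the gp130 chain shared by interleukin 6 cytokines, changed by -0.16 as deposited with a call, but by 0.19 and 0.26 under the other scalings. The deposited Il6st call was lost without wt replicate 1 or 2 or G609G/G609G replicate 1 or 2 (adjusted p = 0.0555 to 0.0625). In LCS/LCS, 7 of the 16 receptors rose and none fell (6 under all 3 scalings), where 12.8% of all genes rose and 9.77% fell. Il4ra, the interleukin 4 receptor chain of macrophages and other cells, was first at 0.70 (adjusted p = 0.000118). The mean of 5 macrophage markers was 9.27 to 9.40 in wt, 7.95 to 8.15 in G609G/G609G and 9.65 to 9.73 in LCS/LCS, and its part in these receptor values was not tested.

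The 5 other JAKs and STATs measured all fell in G609G/G609G as deposited, 4 of them under all 3 scalings, with Jak1 the exception (-0.32 as deposited, 0.04 and 0.11 under the others). Stat6, which carries interleukin 4 signals, fell by 1.22 in G609G/G609G (by 0.74 after quantile normalization) and rose by 0.48 in LCS/LCS (adjusted p = 1.09e-06 and 0.001). Stat4, which carries interleukin 12 signals in lymphocytes, fell in both mutants, from 6.68, 6.66 and 6.86 in wt to 4.57, 4.47 and 4.83 in G609G/G609G and 4.75, 4.91 and 4.91 in LCS/LCS. These falls, of 2.11 and 1.88, ran beside lower testis and germ cell markers in both mutants. The mean of 5 lymphocyte markers was 4.97 to 5.10, 4.74 to 4.83 and 5.11 to 5.18 in wt, G609G/G609G and LCS/LCS. Between the mutants 7 of 8 testis markers were called higher in G609G/G609G, and Stat4 changed by -0.23 (limma adjusted p = 0.0976). The part of testis RNA in the Stat4 values was not tested.

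Of the 4 other SOCS genes, 2 fell and 0 rose in G609G/G609G, and neither fall held under all 3 scalings. Socs5 had the greater fall (-0.70, and -0.17 after quantile normalization). Socs7 fell by 0.37 in LCS/LCS (adjusted p = 0.035), a call lost without wt replicate 1 or 3 or any 1 LCS/LCS array (adjusted p = 0.0639 to 0.115). Socs6 was 0.43 higher in G609G/G609G than in LCS/LCS (adjusted p = 0.0482), and 0.88 and 0.80 higher under the other scalings. The deposited Socs6 call was lost without wt replicate 1 or 2, G609G/G609G replicate 1 or 3, or LCS/LCS replicate 2 or 3 (adjusted p = 0.0619 to 0.154), and with the replicate number as a block (adjusted p = 0.0753). Among 14 adaptors and other negative regulators, 2 rose and 9 fell in G609G/G609G, and 2 and 3 did so under all 3 scalings. Ptpn2, a phosphatase of JAK1, JAK3 and STATs, rose by 0.88 (adjusted p = 1.85e-05; 1.37 after quantile normalization), while Ptpn6, the blood cell phosphatase SHP-1, fell by 0.98, and by 0.50 after quantile normalization. Ptpn1, the phosphatase PTP1B that acts on JAK2 downstream of leptin, fell by 0.47 as deposited and stood at 0.07 after quantile normalization. Cbl, a ubiquitin ligase, changed by -1.02 in G609G/G609G against LCS/LCS, and by -0.53 after quantile normalization. In LCS/LCS, Ptpn11, the phosphatase SHP-2, rose by 0.39 and Irs1, an insulin receptor substrate, fell by 0.41. The Irs1 call was lost without any 1 wt array or LCS/LCS replicate 2 or 3 (adjusted p = 0.0511 to 0.0956).

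Target genes did not move as a block in G609G/G609G: of 13 measured STAT3 and STAT5 targets, known mostly from liver and blood cells, 5 rose and 5 fell (5 and 3 under all 3 scalings). Igfals, which encodes the partner that keeps IGF1 in the circulation and is growth hormone induced in liver, read 7.03, 6.93 and 6.93 in wt, 4.43, 4.32 and 4.39 in G609G/G609G and 8.41, 8.29 and 8.44 in LCS/LCS. It fell 5.99-fold in G609G/G609G (log2 change -2.58, SE 0.06, limma adjusted p = 2.82e-08) and rose 2.67-fold in LCS/LCS (1.42, SE 0.06, adjusted p = 3.03e-06), the order that Lep and Ghr also showed. Igf1, its growth hormone induced ligand, read 9.34, 9.40 and 9.44 in wt, 9.25, 9.29 and 9.32 in G609G/G609G and 9.82, 9.76 and 9.81 in LCS/LCS. It rose in LCS/LCS (0.40, SE 0.05, adjusted p = 0.00106). In G609G/G609G it did not pass as deposited (-0.11, 95% interval -0.22 to 0.01, adjusted p = 0.114) and was called higher under the other scalings (0.29 and 0.32).

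Cebpb, a transcription factor of early adipocyte differentiation, rose in both mutants, by 1.03 in G609G/G609G and 0.55 in LCS/LCS, and Bcl2l1, a survival gene, was 0.77 higher in G609G/G609G than in LCS/LCS (1.26 after quantile normalization). In LCS/LCS 7 of the 13 targets rose and none fell, all 7 under all 3 scalings. Of all genes, 12.8% rose and 9.77% fell in LCS/LCS against wt, 12% and 8.71% under all 3 scalings. Socs2 rose in G609G/G609G fat in which Ghr, Stat5a and Igfals fell, and all 4 of these calls held under all 3 scalings. Cish also rose under all 3 scalings. Igf1 and Stat5b were not called as deposited and were called higher after quantile normalization. The skeletal muscle markers were higher by a median of 6.21 on the same arrays, and which cells gave the Socs2 and Lepr signal was not tested.

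**Figure D4:**
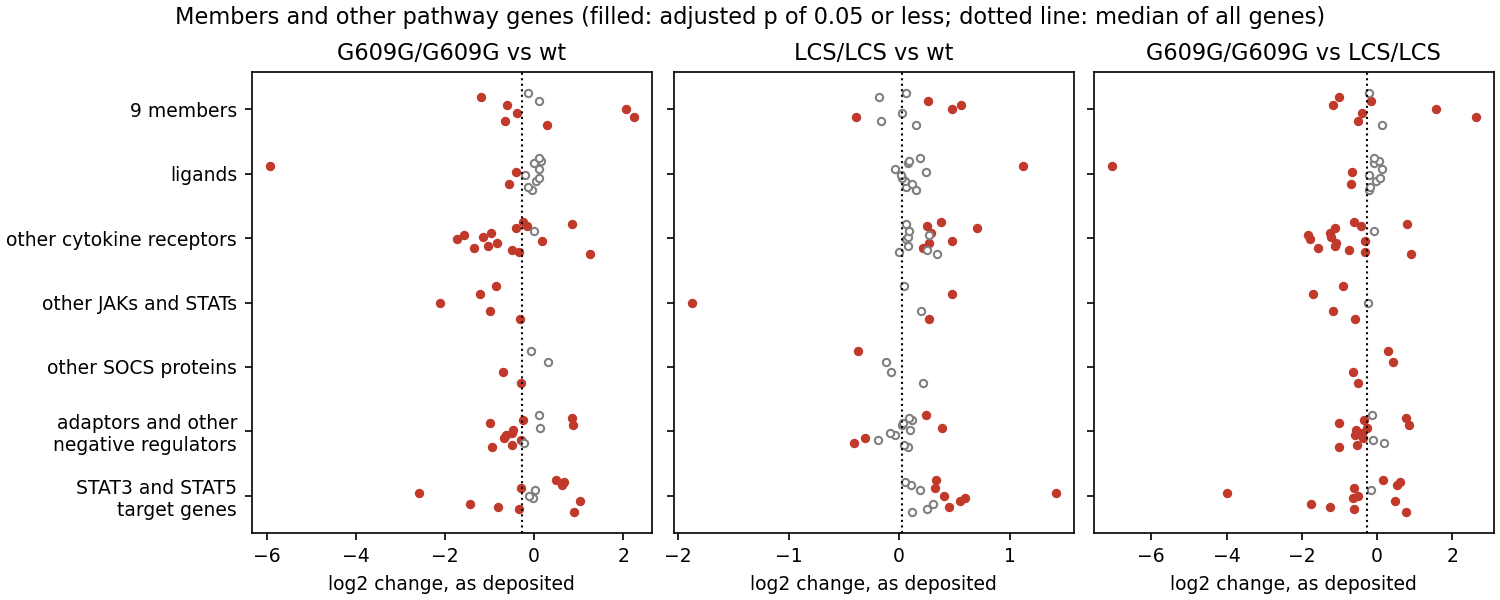
Log2 change as deposited (horizontal axes with their own ranges) of the 9 members and of 64 other genes of the route by list. Each point is a gene, filled where the limma adjusted p was 0.05 or less, and the dotted line is the median of all 14860 genes; the point at -5.93 in the first panel is Lep and that at -1.88 in the second is Stat4.

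For the 3 members with the greatest range of genotype means, the genes with the most similar pattern were sought among 13607 genes, by the root mean square difference of mean-centred log2 values over the 9 arrays. For Lepr these were Slc7a2 (0.11), a cationic amino acid transporter, Slc25a33 (0.16), a mitochondrial pyrimidine carrier, and Tpm2 (0.16), a tropomyosin of muscle. For Socs2 they were Pmvk (0.13), Galnt15 (0.13) and Ptp4a3 (0.16), and for Stat5a they were Scai (0.05), P3h2 (0.06) and Plxnb2 (0.07). Slc7a2 went from 6.42 in wt to 8.53 in G609G/G609G and 5.89 in LCS/LCS, as Lepr went from 5.45 to 7.68 and 5.06. These arrays fall into 3 clusters by genotype, so likeness describes mainly the genotype means.

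**Figure D5:**
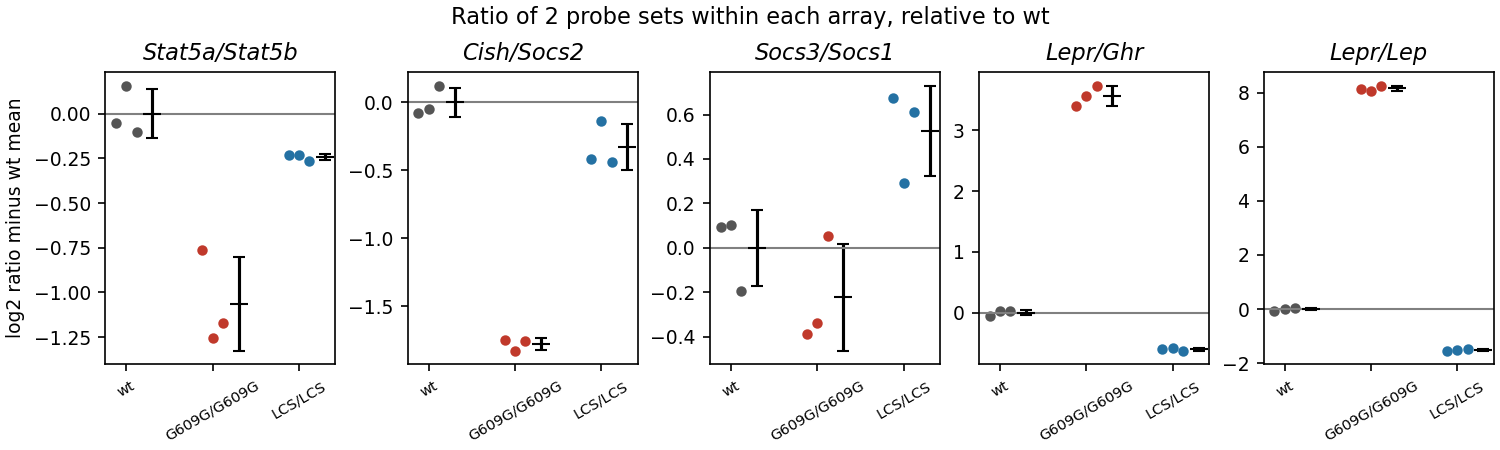
Log2 ratio of 2 probe sets on the same array minus the mean of that ratio over the wt arrays (vertical axes with their own ranges), for 5 pairs. Points are arrays and the bar beside them is the mean with SD (n = 3); Lepr against Lep is 8.16 higher in G609G/G609G and 1.51 lower in LCS/LCS than in wt, and Stat5a against Stat5b is lower in both.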

How the data were processed

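RNA of perigonadal white fat was hybridised to Affymetrix exon arrays summarised per gene, on 9 arrays of 3 genotypes; the design text counts 10 samples, and 9 were analysed here. The values were deposited by the authors as log2 signals, a unit read from the values themselves. The background correction, summarisation and scaling are steps not given in the sources used here, and the build mm9 is named per the submitters' processing notes. Arrays carry no read depth, and 3 per genotype limit the precision.

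Of 23332 probe sets, 14996 had 1 gene symbol in the platform annotation, 1019 had several and 7317 none listed. Changes were tested with limma 3.58.1 (R 4.3.3) on all 9 arrays, 1 mean per genotype, two-sided, with Benjamini-Hochberg adjustment over all probe sets and a threshold of 0.05. The script was tested on simulated data with seeded changes. Array medians differed by genotype, so quantile normalization and median centring were run as alternatives, beside the methods' t-test, array weights, a fold minimum, fits of 2 genotypes, a replicate block and leaving out each array. Ratios of 2 probe sets within arrays were tested by exact permutation.

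Members, gene lists and markers were chosen with earlier results of these data known. Text names all members, a preset few genes of the route, and per list the called genes with the largest rise and fall in each comparison; likeness took the 3 closest genes. Promoters are RefSeq windows of GRCm38.p6, matched by symbol; no coordinate was converted between builds. Genes of the route without a probe set of 1 symbol, such as Prlr and Il6ra, were not analysed here.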

Additional observations from a re-analysis of the deposited data

How the results depend on the processing

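Scaling of the arrays changed directions, and a minimum fold moved the counts most. In G609G/G609G against wt, called probe sets split into 2195 higher and 10112 lower as deposited. The split was 5785 and 5559 on quantile normalized arrays and 9648 and 5010 on median centred ones. Among the members and the 23 other named genes, counting changes called under either scaling, 14 changed sign after quantile normalization. Against wt these were Stat5b (0.38), Socs1 (0.15), Il6st (0.19), Jak1 (0.0431), Igf1 (0.29), Ptpn1 (0.0685), Il4ra (0.0448), Socs7 (0.44) and Irs1 (0.20), and against LCS/LCS they were Stat3 (0.31), Stat5b (0.32), Socs1 (0.12), Il6st (0.0126) and Ptpn11 (0.21). After median centring 8 did: Socs1 (0.04), Il6st (0.26), Jak1 (0.11), Igf1 (0.32), Il4ra (0.0217) and Socs7 (0.35) against wt, and Stat3 (0.22) and Ptpn11 (0.11) against LCS/LCS. Uncalled changes that also turned sign were Ifngr2 in LCS/LCS against wt after quantile normalization (-0.02), and, after median centring, Stat5b (0.28) and Irs1 (0.20) against wt and Stat5b (0.17) and Stat4 (0.14) between the mutants. Genes of the route that are not named were not counted here. Changes of within-array ratios also moved with quantile normalization. In G609G/G609G against wt, Lepr to Lep went from 8.16 to 8.37 and Cish to Socs2 from -1.78 to -1.62. In LCS/LCS against wt, Lepr to Lep went from -1.51 to -1.37 and Lepr to Ghr from -0.60 to -0.41. Socs3 to Socs1 went from -0.75 to -0.99 between the mutants. The cause of the genotype difference in array medians was not tested.

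As deposited, 12307, 4005 and 12147 probe sets were called in G609G/G609G against wt, LCS/LCS against wt and G609G/G609G against LCS/LCS, with 7, 4 and 7 members and 46, 23 and 49 other genes of the route. The methods' t-test with its fold minimum gave 6650, 1487 and 6933 probe sets and 28, 5 and 32 genes of the route, with 0 members in LCS/LCS against wt and 4 between the mutants. The adjusted p with a fold of at least 1.5 gave 6934, 1385 and 7184 probe sets, 28, 5 and 32 genes of the route, and the same 0 and 4 members. In LCS/LCS against wt, members numbered 7 after quantile normalization and 2 by the methods' t-test after Benjamini-Hochberg adjustment, and array weights gave 6511 probe sets. The cause was not tested.

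Leaving out 1 array gave 11118 to 12428, 2669 to 4805 and 10747 to 12202 probe sets, 6 to 7, 2 to 4 and 5 to 7 members, and 42 to 48, 14 to 29 and 46 to 50 genes of the route in the same order. Without wt replicate 1 or 2 or LCS/LCS replicate 1 or 3, 2 members were called in LCS/LCS against wt, and the lowest probe set count, 2669, came without LCS/LCS replicate 3. Same-numbered arrays did not deviate together in every pair (correlations -0.07 to 0.23, and 5 of 9 arrays matched their own number best). Whether the numbers mark a pairing or a batch cannot be told from this, and the main fit did not pair the arrays. With the replicate number as a block, 12434, 3861 and 12247 probe sets, 7, 4 and 7 members and 46, 23 and 49 genes of the route were called. No member call changed, and 3 calls of other named genes did: Cntfr in LCS/LCS against wt (adjusted p = 0.0417), and Stat4 (0.0461) and Socs6 (0.0753) between the mutants.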
